A study of Mus musculus with 20 samples.

Results

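The genes described here encode the mouse receptors that bind the constant part of immunoglobulin G. They comprise the activating receptors Fcgr1, Fcgr3 and Fcgr4, the signalling chain Fcer1g that these receptors share, the inhibitory receptor Fcgr2b and the neonatal receptor Fcgrt. These 6 genes, of 49671 in the count tables, were chosen by name from a list and not by their values, though earlier results of these data were known. They were followed in hippocampi of mice that had received injected antibodies of different kinds. All 20 mice were adult wild-type males aged 10 to 12 weeks, divided into 4 groups of 5, and a single frozen hippocampus made up each library. Control mice received isotype antibody, which has no checkpoint target, into the peritoneum. ICI mice received 2 immune checkpoint inhibitors by the same route: anti-CTLA-4 (1 mg each time, 3 times a week) and anti-PD-1 (200 µg each time, 2 times a week). Melanoma mice carried D4M-3A.UV2 melanoma cells, 500000 per injection into the skin on both sides, and were given isotype antibody after 1 week of engraftment. Melanoma plus ICI mice carried the same tumours and received both checkpoint antibodies, for which the labels state 3 weeks of treatment. Every mouse therefore received antibody, and no group without injected antibody enters here. The mice were killed 72 hours after their final dose.

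Activating Fc gamma receptors sit on microglia, macrophages, monocytes and natural killer cells, where clustering by antibody-coated targets phosphorylates the tyrosine motifs of the shared gamma chain and starts phagocytosis and an oxidative burst. Fcgr2b carries an inhibitory motif that recruits the phosphatase SHIP-1 and opposes this signal. The neonatal receptor works differently: with beta-2 microglobulin it binds immunoglobulin G in acidic endosomes and returns it to the cell surface, and in the brain it is known from endothelium and choroid plexus.

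At an adjusted p of 0.05 (edgeR's quasi-likelihood test, Benjamini-Hochberg over 18427 genes), 0 of the 5 receptor genes that could be tested differed between checkpoint antibodies and isotype antibody, with or without tumour. The background was equally empty, at 0% of all genes tested in each of the 6 comparisons made. The 5 tested genes were at low to middling levels with a coefficient of variation of 15.3% to 18.6% over the 20 libraries, and Fcgr4 was near the limit of detection. Among the 5, Fcgrt had the largest log2 fold change without tumour and the largest difference between the antibody effects. Its mean was 18.9 CPM in control against 15.2 CPM in ICI hippocampi. In tumour-bearing mice it was 16.1 CPM under isotype and 18.5 CPM under checkpoint antibodies. CPM is counts per 1000000 of the scaled library. P-values between groups set a difference against the spread between libraries, in which differences between mice and between dissections are mixed.

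The libraries held 21990624 to 25735149 counts. All 8 hippocampal markers were measured in every group, with a summed level of 368 to 1770 CPM, and the dissections also carried unequal amounts of neighbouring tissue. Summed choroid plexus markers ranged from 20.9 to 6620 CPM and summed striatal markers from 123 to 1250 CPM. Control replicate 4 and melanoma plus ICI replicate 1 stood apart on the first principal component, at 71.4 and 61.5, with the other 18 libraries between -40.9 and 27.5. They also had the highest mitochondrial shares of counts, 5.1% and 4.28%, against 3.08% to 3.79% in the others; the part of this in any result was not tested. In tissue RNA, fewer cells of a type and less RNA per cell cannot be told apart.

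Levels of different genes were compared only on a per-length scale, TPM, computed from the deposited exonic lengths. Fcgrt was the most abundant, with a mean of 29.9 ± 4.6 TPM (SD, n = 20). The gamma chain Fcer1g followed at 16.4 ± 2.43 TPM, and Fcgr3 at 14.7 ± 2.1 TPM. Fcgr1, the high-affinity receptor, stood at 3.99 ± 0.679 TPM, Fcgr2b at 1.84 ± 0.36 TPM and Fcgr4 at 0.228 ± 0.186 TPM. Among tested genes, these means placed Fcgrt at percentile 67.1, Fcer1g at 52.8, Fcgr3 at 50.6, Fcgr1 at 27.3 and Fcgr2b at 15.6. The order held within each of the 20 libraries for every pair of neighbours except Fcer1g and Fcgr3, where Fcer1g was the higher in 15 of 20 and the ranges overlapped. Fcgr3 was on average 3.67 times Fcgr1, and Fcgr1 was 2.17 times Fcgr2b.

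**Figure D1:**
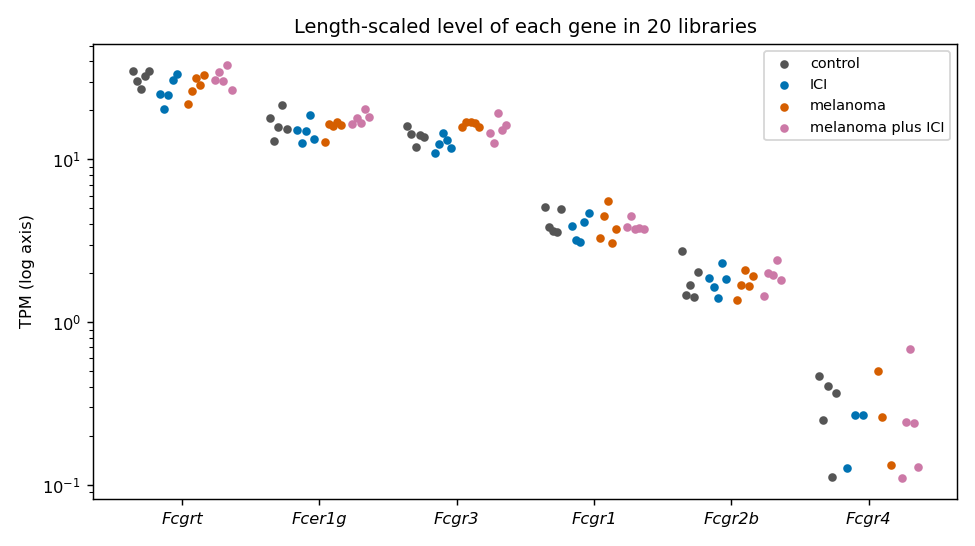
Length-scaled level (TPM, log axis) of the 6 genes in each of 20 libraries, coloured by group. Fcgrt lies between 20.4 and 38.2 TPM, Fcer1g and Fcgr3 overlap, and Fcgr4 reaches at most 0.686 TPM; its 4 libraries at 0 counts cannot be drawn on a log axis.

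The genomic positions bear on how these values can be read. Coordinates are those of the deposited tables, whose start and end match GENCODE M21 on GRCm38 for all 6 genes. Fcgr2b (chr1:170958617-170976547, minus strand), Fcgr4 (chr1:171018920-171029761, plus strand), Fcgr3 (chr1:171051174-171064935, minus strand) and Fcer1g (chr1:171229572-171234365, minus strand) lie within 275749 bases of chromosome 1. Fcgr1 lies alone on chromosome 3 (chr3:96282909-96293969, minus strand) and Fcgrt on chromosome 7 (chr7:45092990-45103851, minus strand). Fcgr2b and Fcgr3 are similar in sequence: 9.58% of all 50-base windows of Fcgr3 exons also occur in Fcgr2b, falling to 2.54% at 100 bases. Reads from such stretches could be split between the genes, and how the counting treated them is not given in the sources used here. Of the 50-base windows of Fcgr2b, 6.95% also occurred in another gene. At 150 bases, where Fcgr3 shared none, Fcgr2b still shared 1.92%, with genes that include Cplx2, Rab3c and Gm47409. The other 4 genes shared no window of 50 bases with another gene. Fcgr2b overlaps an antisense gene, Gm38204, over 155 exon bases, and that gene had 0 counts.

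The activating receptors are known as targets of the myeloid factor PU.1 and of interferon, so the 250 bases before each start site (RefSeq, GRCm38.p6) were searched on both strands for a PU.1 core (GAGGAA), a gamma-activated site (TTCNNNGAA) and an interferon-response core (GAAA, any 2 bases, GAAA). Of 32851 promoters searched, 23.3% held the first, 7.02% the second and 2.98% the third. Fcgr1, Fcgr3 and Fcgr4 each held 1 PU.1 core, read here on the gene's strand as its reverse complement, and Fcgr2b, Fcer1g and Fcgrt held none of the 3 motifs in this window. Fcgr3 has 2 entries with start sites close together inside the gene as deposited, and the first is shown. Fcgr1 also held 1 gamma-activated site and Fcgr4 1 interferon-response core. The matches are shown because, in this search, only the activating receptors' promoters held any of the 3 motifs. The PU.1 core was in each of these promoters, and the other 2 motifs were in 1 promoter each. A match is a description of letters and not of binding. The match is in capitals, and each run reads in the gene's direction of transcription.
Fcgr1 PU.1 core, chr3:96293989-96294054, minus strand: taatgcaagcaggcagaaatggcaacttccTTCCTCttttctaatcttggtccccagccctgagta
Fcgr1 gamma-activated site, chr3:96294040-96294108, minus strand: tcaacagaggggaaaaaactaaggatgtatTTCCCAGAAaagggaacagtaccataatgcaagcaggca
Fcgr3 PU.1 core, chr1:171059404-171059439, minus strand: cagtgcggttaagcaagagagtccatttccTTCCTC
Fcgr4 PU.1 core, chr1:171018874-171018925, plus strand: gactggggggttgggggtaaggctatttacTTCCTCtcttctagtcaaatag
Fcgr4 interferon-response core, chr1:171018823-171018892, plus strand: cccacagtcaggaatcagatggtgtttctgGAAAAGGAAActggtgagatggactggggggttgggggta

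Among the activating receptors, Fcgr1 read 3.56, 2.72, 2.55, 3.04 and 3.40 CPM in the 5 control hippocampi and 2.70, 2.21, 2.28, 2.84 and 3.20 CPM in the 5 ICI hippocampi. With tumour it read 2.31, 3.15, 3.77, 2.20 and 2.52 CPM under isotype and 2.95, 3.09, 2.59, 2.56 and 2.67 CPM under checkpoint antibodies. The groups overlapped in both comparisons, with 2 ICI libraries below the lowest control. The melanoma plus ICI libraries all lay inside the wider range of the melanoma libraries. By edgeR's quasi-likelihood test, the log2 fold change was -0.21 without tumour (95% interval -0.55 to 0.13, adjusted p = 0.766) and -0.0082 with tumour (-0.35 to 0.33, adjusted p = 0.991). With the 4 tissue scores described below as covariates, these were -0.0769 and -0.12. With the microglia score, also described below, they were -0.173 and -0.0207. Of 29 alternatives for the value with tumour, 6 turned positive, up to 0.127 without melanoma replicate 3.

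Fcgr3, the low-affinity activating receptor, was the most abundant of the 3 per length. It read 7.48, 6.76, 5.60, 8.06 and 6.39 CPM in control and 5.14, 5.69, 7.14, 6.05 and 5.42 CPM in ICI hippocampi. In tumour-bearing mice it read 7.43, 7.97, 7.79, 8.14 and 7.11 CPM under isotype and 7.51, 5.86, 8.97, 6.86 and 7.78 CPM under checkpoint antibodies. Of the ICI libraries, 4 lay below the control median, and the melanoma libraries were the most tightly grouped. The log2 fold change by edgeR was -0.22 without tumour (95% interval -0.48 to 0.04, adjusted p = 0.766) and -0.06 with tumour (-0.32 to 0.20, adjusted p = 0.919). With the microglia score as a covariate, these were -0.0588 and -0.114. With the 4 tissue scores they were -0.262 and -0.00461.

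Fcgr4, the third activating receptor, received 37 counts over all 20 libraries and did not pass the filter on low counts, so it was not tested. Without tumour its counts were 4, 2, 3, 1 and 3 under isotype and 1, 0, 2, 0 and 2 under checkpoint antibodies. With tumour they were 0, 4, 2, 0 and 1 under isotype and 1, 2, 6, 2 and 1 under checkpoint antibodies. Counts reached 6 in a single library and were 0 in 4 libraries, where a count of 0 allows a level of up to 3 counts; over all libraries 3 counts came to 0.117 to 0.136 CPM. These limits cover counting error only. In all, the groups summed to 13, 5, 7 and 12 counts in that order, all 5 ICI libraries lay below the control median, and the groups overlapped.

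Fcer1g, the gamma chain whose tyrosine motif passes on the signal of the activating receptors, read 4.23, 3.06, 3.73, 6.17 and 3.57 CPM in control and 3.56, 2.91, 3.71, 4.36 and 3.06 CPM in ICI hippocampi. With tumour it read 3.02, 3.92, 3.72, 4.15 and 3.69 CPM under isotype and 4.27, 4.19, 3.94, 4.65 and 4.40 CPM under checkpoint antibodies. Control replicate 4, at 6.17 CPM, was the highest of all 20 libraries, and 4 of the 5 melanoma plus ICI libraries lay above the highest melanoma library. The log2 fold change by edgeR was -0.24 without tumour (95% interval -0.58 to 0.11, adjusted p = 0.766) and 0.21 with tumour (-0.13 to 0.56, adjusted p = 0.825). Without control replicate 4, the value without tumour was -0.0548. With the microglia score as a covariate the values were 0.0237 and 0.124, and with the 4 tissue scores -0.203 and 0.196.

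Fcgr2b, the inhibitory receptor, read 4.23, 2.29, 2.64, 2.72 and 3.12 CPM in control and 2.92, 2.51, 2.28, 3.54 and 2.80 CPM in ICI hippocampi. With tumour it read 2.14, 2.69, 3.20, 2.71 and 2.90 CPM under isotype and 2.5, 3.09, 3.06, 3.67 and 2.89 CPM under checkpoint antibodies. Control replicate 1 was the highest library, and all groups overlapped. The log2 fold change by edgeR was -0.09 without tumour (95% interval -0.45 to 0.27, adjusted p = 0.883) and 0.16 with tumour (-0.20 to 0.52, adjusted p = 0.844). Both signs turned with the choroid plexus, meninges, neocortex and striatum marker scores as covariates, to 0.11 and -0.041, and the value without tumour was 0.056 without control replicate 1. With the microglia score as a covariate the values were -0.121 and 0.167.

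The balance of activating to inhibitory receptors is often given as a ratio. Per length, the sum of Fcgr1, Fcgr3 and Fcgr4 was 10.4 ± 2.06 times Fcgr2b in control and 9.41 ± 2.09 times in ICI hippocampi (SD, n = 5). With tumour it was 11.9 ± 1.52 times under isotype and 10.5 ± 2.11 times under checkpoint antibodies. Single libraries ran from 7.5 to 14, and every group overlapped every other. No test was made on the ratio.

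**Figure D2:**
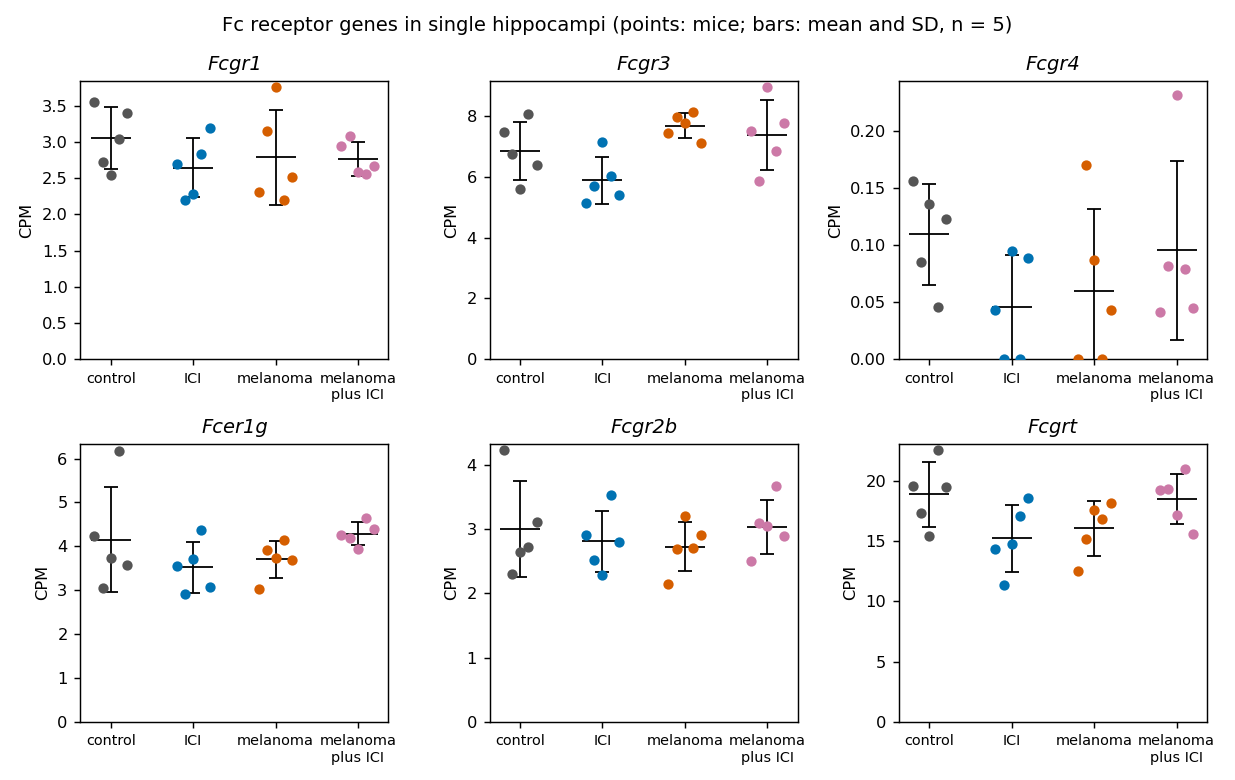
CPM of each of the 6 genes in the 4 groups, with 1 point per mouse and bars for the mean and SD (n = 5; the lower SD bars of Fcgr4 are cut at 0). The groups overlap for every gene; Fcgrt means run from 15.2 CPM in ICI to 18.9 CPM in control hippocampi.

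Fcgrt, the neonatal receptor that recycles immunoglobulin G, read 19.6, 17.3, 15.4, 22.5 and 19.5 CPM in control and 14.4, 11.3, 14.8, 17.1 and 18.6 CPM in ICI hippocampi. With tumour it read 12.5, 15.2, 17.6, 16.9 and 18.2 CPM under isotype and 19.2, 19.3, 17.2, 21 and 15.6 CPM under checkpoint antibodies. Without tumour, all 5 ICI libraries lay below the control median and 3 below the lowest control. With tumour, 3 melanoma plus ICI libraries lay above the highest melanoma library. The groups still overlapped in both comparisons.

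By edgeR's quasi-likelihood test, Fcgrt was lower in ICI than in control by a log2 fold change of -0.31 ± 0.134 (SE; 95% interval -0.59 to -0.0313, unadjusted p = 0.0311, adjusted p = 0.766). With tumour the log2 fold change was 0.20 ± 0.134 (-0.08 to 0.48, adjusted p = 0.825). The difference between these antibody effects was 0.51 ± 0.189 on the log2 scale (0.12 to 0.91, unadjusted p = 0.0135, adjusted p = 0.482). Neither value passed over all genes. With the choroid plexus, meninges, neocortex and striatum marker scores as covariates, the value without tumour was -0.17, that with tumour 0.00821 and the difference 0.17. With the microglia score as a covariate they were -0.21, 0.165 and 0.375. Without melanoma replicate 1 the value with tumour was 0.125. Without control replicate 4 and melanoma plus ICI replicate 1 together, the value without tumour was -0.24, that with tumour 0.194 and the difference 0.44.

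Beta-2 microglobulin, B2m, is the light chain that Fcgrt needs to reach the cell surface and is shared with MHC class I; it was named after its values were seen. It read 51.1, 49.4, 44.8, 83.1 and 60.8 CPM in control and 36.9, 41.0, 47.6, 50.5 and 52.6 CPM in ICI hippocampi. With tumour it read 42.3, 52.3, 44, 50.3 and 57.0 CPM under isotype and 72.4, 46.6, 53.4, 62.2 and 47.6 CPM under checkpoint antibodies. Control replicate 4 and melanoma plus ICI replicate 1, the libraries that stood apart, were its highest values. The log2 fold change of B2m by edgeR was -0.34 ± 0.158 (SE) without tumour and 0.20 ± 0.158 with tumour, with adjusted p of 0.766 and 0.825, and the difference was 0.54 ± 0.223 (adjusted p = 0.484). Without those 2 libraries, an alternative chosen after seeing the data, the values were -0.18, 0.0995 and 0.28.

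Markers of other tissues and cell types were read beside Fcgrt, and 0 of the markers in any list passed an adjusted p of 0.05 by edgeR in any comparison. The meninges score, the mean log2 CPM of 8 markers, averaged 3.75 in control and 3.20 in ICI libraries without tumour, and 3.49 under isotype and 4.15 under checkpoint antibodies with tumour. Over the same groups, in that order, the endothelium score of 8 markers averaged 4.57, 4.29, 4.44 and 4.6, and the microglia score of 12 markers 4.46, 4.35, 4.32 and 4.36. In the same order, summed endothelial markers ranged from 212 to 252, 169 to 213, 192 to 243 and 201 to 282 CPM, and summed meningeal markers from 106 to 307, 61.7 to 245, 78.8 to 255 and 143 to 443 CPM. The choroid plexus score of 8 markers varied most between libraries, with group means of 4.11, 3.54, 3.18 and 4.84 and SDs of 2.91, 2.08, 1.94 and 2.08, in the same order, and summed levels of 32.6 to 6220, 20.9 to 2220, 43.1 to 3690 and 67.6 to 6620 CPM. Its markers had a median log2 fold change of -1.34 without tumour (0 of 8 positive) and 1.46 with tumour (8 of 8 positive), and 2.80 for the difference. The border macrophage score of 8 markers averaged 0.499, 0.14, 0.665 and 0.818, with summed levels of 17 to 39.7, 19 to 30.6, 24.8 to 46.1 and 24.1 to 40.1 CPM. The red blood cell score of 5 markers averaged 1.56, 0.162, 1.55 and 1.41, with summed levels of 11.1 to 46.6, 1.5 to 18.2, 10.4 to 42.3 and 9.11 to 39.7 CPM. None of these markers was at 0 throughout a group. With the choroid plexus and meninges scores among the 4 held in the fit, Fcgrt had the smaller values given above. Endothelium, border macrophage and red blood cell scores were not held in a fit, and which tissue bears on Fcgrt was not tested.

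Counted together, all 5 tested receptor genes had a negative log2 fold change without tumour, with a median of -0.22 against -0.0098 for all genes, of which 52% were negative. The sign turned for Fcgr2b with the 4 tissue scores as covariates (0.11) and for Fcer1g with the microglia score (0.0237). At an unadjusted p under 0.05 only Fcgrt was counted, lower in ICI, beside 5.23% of all genes in either direction and 3.15% lower. With tumour, 3 of the 5 were positive, with a median of 0.16 against 0.017 for all genes, of which 53.5% were positive, and 0 reached an unadjusted p under 0.05, beside 5.5% of all genes. Averaged over tumour status, 4 of 5 were negative with a median of -0.05 against -0.0012 (50.5% of all genes negative), and 0 reached an unadjusted p under 0.05, beside 2.19% of all genes. Of these 4, Fcer1g was at -0.01152 and turned positive in 8 of 28 alternatives. Fcgr2b, the positive gene, turned negative in 4 of 28. The difference between the antibody effects was positive for all 5, with a median of 0.25 against 0.0246 (52.8% of all genes positive), and 1, Fcgrt, reached an unadjusted p under 0.05, beside 10.3% of all genes and 5.99% that were higher. This sign did not hold for all 5 with covariates: Fcgr1 and Fcgr2b were negative with the 4 tissue scores, and Fcgr3 was negative with the microglia score. DESeq2 and limma voom called 0 receptor genes in these comparisons at an adjusted p of 0.05. Without tumour, 2 of 12 microglia and 1 of 8 border macrophage markers were positive. Endothelium and meninges had 0 of 8 positive each. For the difference, 9 of 12 microglia, 6 of 8 border macrophage and 8 of 8 each of endothelium and meninges markers were positive. Their medians were 0.222, 0.646, 0.285 and 1.14 in that order. Hippocampus markers went the other way, at 8 of 8 positive without tumour and 0 of 8 for the difference. The part of these markers in the receptor signs was not tested.

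**Figure D3:**
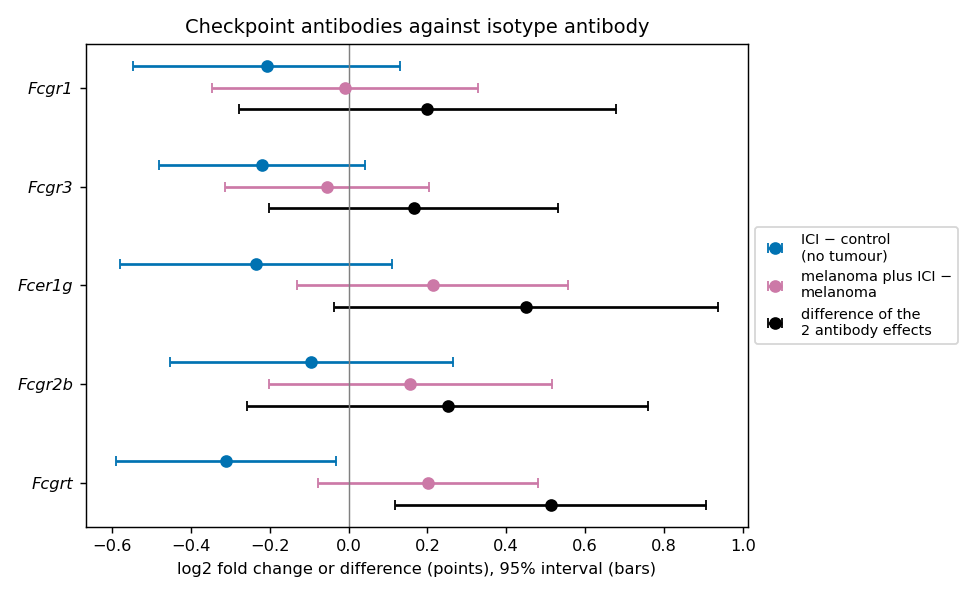
Log2 fold change of checkpoint against isotype antibodies for the 5 tested genes, without tumour (blue), with tumour (pink), and the difference of these effects (black), with 95% intervals from edgeR. The intervals of Fcgrt exclude 0 without tumour (-0.59 to -0.0313) and for the difference (0.12 to 0.91), and those of the other 4 genes include 0 throughout.

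Of the other genes, Fcer1g had the next largest difference between antibody effects, at 0.45 ± 0.233 on the log2 scale (SE; 95% interval -0.0374 to 0.94; edgeR adjusted p = 0.491). It was 0.10 with the microglia score as a covariate, 0.398 with the 4 tissue scores and 0.28 without the libraries that stood apart. For Fcgr2b the difference was 0.25 (-0.26 to 0.76), for Fcgr1 0.20 (-0.28 to 0.68) and for Fcgr3 0.16 (-0.20 to 0.53). With the 4 tissue scores as covariates Fcgr2b was at -0.151, Fcgr1 at -0.0434 and Fcgr3 at 0.257. With the microglia score they were at 0.288, 0.152 and -0.0554. The interval of each of these 4 genes spans 0 and reaches above 0.5 on the log2 scale.

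The tumour comparisons share libraries with the antibody comparisons. Under isotype antibody, the log2 fold change of melanoma against control was negative for 4 of the 5 receptor genes and positive for Fcgr3, with a median of -0.14 against -0.0097 for all genes, of which 52% were negative. Of these 4, Fcer1g was at 0.16 with the microglia score and 0.0143 without the libraries that stood apart. Fcgr2b was at 0.0104 without control replicate 1. In this comparison 0 of the 5 reached an unadjusted p under 0.05, beside 5.11% of all genes, and the adjusted p lay between 0.877 and 0.882 (edgeR). Under checkpoint antibodies the log2 fold change with melanoma was positive for all 5, with a median of 0.28 against 0.0249 for all genes, of which 55% were positive. Of the 5, 1, Fcgr3, reached an unadjusted p under 0.05, beside 8.63% of all genes and 4.12% that were higher. Under checkpoint antibodies Fcgr3 averaged 5.89 ± 0.776 CPM without tumour and 7.40 ± 1.15 CPM with tumour (SD, n = 5), and 3 libraries of the latter lay above the highest ICI library. Its log2 fold change was 0.33 ± 0.125 by edgeR (SE; 95% interval 0.07 to 0.59, adjusted p = 0.563). Fcgrt had 0.28 (-0.000277 to 0.56, adjusted p = 0.577), and 0.0317 with the 4 tissue scores as covariates. With these covariates Fcgr2b was at -0.209, Fcgr1 at -0.142, Fcgr3 at 0.39 and Fcer1g at 0.294. With the microglia score Fcgrt was at 0.265. Striatum and hippocampus markers also varied between these groups. The striatum score of 7 markers averaged 3.44 and 3.5 without tumour (control, then ICI) and 5.09 and 4.07 with tumour (isotype, then checkpoint antibodies). Over the same groups, in that order, its summed levels were 134 to 182, 123 to 165, 124 to 1250 and 129 to 654 CPM. In melanoma against control 7 of 7 striatum markers were higher at an unadjusted p under 0.05, with a median log2 fold change of 2.16. The hippocampus score of 8 markers averaged 6.81, 7.04, 6.62 and 6.06 in the same order, with summed levels of 685 to 1760, 771 to 1770, 726 to 1200 and 368 to 888 CPM. In melanoma plus ICI against ICI 6 of 8 hippocampus markers were lower at an unadjusted p under 0.05, with a median of -0.749. The hippocampus score was not held in a fit, and the part of these markers in the tumour comparisons was not tested.

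The genes that work with these receptors were read from lists, and 0 of their tested members passed an adjusted p of 0.05 in any comparison by edgeR. Of 17 tested genes of activating receptor signalling, which include the kinases Syk and Lyn and the adaptors behind them, 8 had a positive log2 fold change without tumour and 6 with tumour. Their medians were -0.05 and -0.13. At an unadjusted p under 0.05, 1 of the 17 was counted without tumour, beside 5.23% of all genes in either direction and 3.15% lower. It was the small GTPase Rac2, at -0.54 ± 0.218 (adjusted p = 0.766). With tumour 0 of the 17 were counted, beside 5.5% of all genes, and the smallest p was that of the phospholipase Plcg2 at -0.37 ± 0.186 (adjusted p = 0.825). Averaged over tumour status the smallest p was that of Vav1, a Rac activator, at -0.15 ± 0.0986 (adjusted p = 1). The difference between antibody effects was positive for 6 of the 17, with a median of -0.09. For this difference 2 of the 17 were higher at an unadjusted p under 0.05 and 0 were lower. Of all genes, 10.3% were counted in either direction and 5.99% were higher. The adaptor Tyrobp, which resembles Fcer1g, was among the 6, at 0.51 ± 0.214 (adjusted p = 0.484).

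Of 8 tested genes of inhibitory receptor signalling, 3 had a positive log2 fold change without tumour and 1 with tumour. The ubiquitin ligase Cbl was at 0.37 ± 0.147 without tumour (edgeR adjusted p = 0.766), and its difference between antibody effects was -0.57 ± 0.208 (adjusted p = 0.481). With tumour the smallest p was that of the phosphatase Ptpn11, at -0.27 ± 0.133 (adjusted p = 0.825). Inpp5d, which encodes SHIP-1, the phosphatase that Fcgr2b recruits, was at -0.11 ± 0.0897 averaged over tumour status (adjusted p = 1). All 5 genes of the phagocyte oxidase, the enzyme of the oxidative burst, were tested. Without tumour 1 of them had a positive log2 fold change, with a median of -0.17, and with tumour 2 did, with a median of -0.05. The difference between antibody effects was positive for 4 of the 5, with a median of 0.19. Ncf1 was the exception. This gene, a cytosolic subunit, was at -0.34 ± 0.123 with tumour (adjusted p = 0.825), with a difference between antibody effects of -0.38 ± 0.175 (adjusted p = 0.484).

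Of 13 other Fc receptor genes, 5 passed the filter on low counts. Without tumour 2 of the 5 were positive, with a median log2 fold change of -0.33. At an unadjusted p under 0.05, 2 were lower, beside 3.15% of all genes. With tumour 2 were positive, with a median of -0.20, and 0 were counted, beside 5.5% of all genes. The difference between antibody effects was positive for 3, with a median of 0.505. Of these, 2 were higher at an unadjusted p under 0.05, beside 5.99% of all genes. Fcrls, an Fc receptor-like gene that is known as a microglial marker, was at -0.33 ± 0.11 without tumour and 0.19 ± 0.11 with tumour (edgeR adjusted p = 0.766 and 0.825). Its difference between antibody effects was 0.52 ± 0.156 (unadjusted p = 0.00329, adjusted p = 0.432). Fcrlb, an Fc receptor-like gene, was at -0.46 ± 0.277 averaged over tumour status (adjusted p = 1), and at -0.227 without control replicate 4, a leave-out chosen after seeing the data. Of 10 immunoglobulin chain genes, 3 were tested: Ighg2c, the only 1 of them for an immunoglobulin G heavy chain, Ighm for the heavy chain of immunoglobulin M, and Jchain, which joins chains of immunoglobulin M and A. They are named as the whole tested list, after their values were seen. Their median log2 fold change was -0.38 without tumour and 0.33 with tumour. On leaving out 1 library at a time, likewise chosen after seeing the data, it was -0.611 to -0.225 without tumour. Melanoma plus ICI replicate 3 read the most Ighm and Ighg2c of all libraries (24.9 and 2.94 CPM). Leaving it out turned the median with tumour to -0.0981, and the median was 0.175 to 0.556 when any other library was left out.

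The receptor genes were set against marker scores of 5 tissues over the 20 libraries, and against each other, which gave 35 relations. After Benjamini-Hochberg adjustment of permutation p-values, 8 passed 0.05 on Pearson's r and 3 passed after centring within each group. Fcgr2b followed the meninges score, with r = 0.77 (permutation p = 0.0001, adjusted 0.0035) and rho = 0.76 (p = 0.00016, adjusted 0.0056), and r was 0.70 without the 2 libraries farthest from the median and 0.80 centred within groups. It also followed the border macrophage score, with r = 0.65 (permutation p = 0.00212, adjusted 0.0186) and rho = 0.68 (p = 0.00119, adjusted 0.0208), at 0.59 without the 2 farthest libraries and 0.74 centred. Its r with the microglia score was 0.0369 (permutation p = 0.876, adjusted 0.958; rho = 0.0782, p = 0.743, adjusted 0.813).

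Fcer1g followed the microglia score on r, at 0.60 (permutation p = 0.0078, adjusted 0.039), but not on rank, where rho was 0.41 (p = 0.0718, adjusted 0.179). Without the 2 farthest libraries r was 0.57, and centred within groups it was 0.66. Fcgrt had r = 0.67 with the meninges score (permutation p = 0.0011, adjusted 0.0186; rho = 0.64, p = 0.00319, adjusted 0.0372) and 0.58 with the endothelium score (p = 0.00639, adjusted 0.039; rho = 0.58, p = 0.00797, adjusted 0.0513). These became 0.64 and 0.55 without the 2 farthest libraries, and 0.59 and 0.35 centred within groups, where neither passed. Its r with the choroid plexus score was 0.0946 (permutation p = 0.694, adjusted 0.81; rho = 0.17, p = 0.463, adjusted 0.623).

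The remaining 3 that passed on r were Fcgr2b with the endothelium score at 0.56 (permutation p = 0.00973, adjusted 0.0426; rho = 0.56, p = 0.0113, adjusted 0.0547; 0.57 without the 2 farthest libraries), Fcgr1 with Fcgrt at 0.57 (p = 0.00761, adjusted 0.039; rho = 0.57, p = 0.00879, adjusted 0.0513; 0.40 without them) and Fcer1g with Fcgrt at 0.65 (p = 0.0021, adjusted 0.0186; rho = 0.53, p = 0.0185, adjusted 0.0719; 0.47 without them). Centred within groups these were 0.59 (adjusted p = 0.0507), 0.53 (adjusted p = 0.0599) and 0.55 (adjusted p = 0.056), and none passed. Fcgr3 passed with no score and no other receptor gene, and its r with the microglia score was 0.28 over all libraries (permutation p = 0.24, adjusted 0.382; rho = 0.22, p = 0.352, adjusted 0.536) and 0.57 centred within groups (adjusted p = 0.0507). Fcgr3 and its signalling chain Fcer1g had r = 0.42 (permutation p = 0.0622, adjusted 0.128; rho = 0.45, p = 0.0477, adjusted 0.152). Markers of blood leukocytes that carry these receptors were low: 10 monocyte and neutrophil markers summed to 0.343 to 1.93 CPM and 6 natural killer cell markers to 0 to 0.26 CPM, and 0 of these 16 passed the filter.

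**Figure D4:**
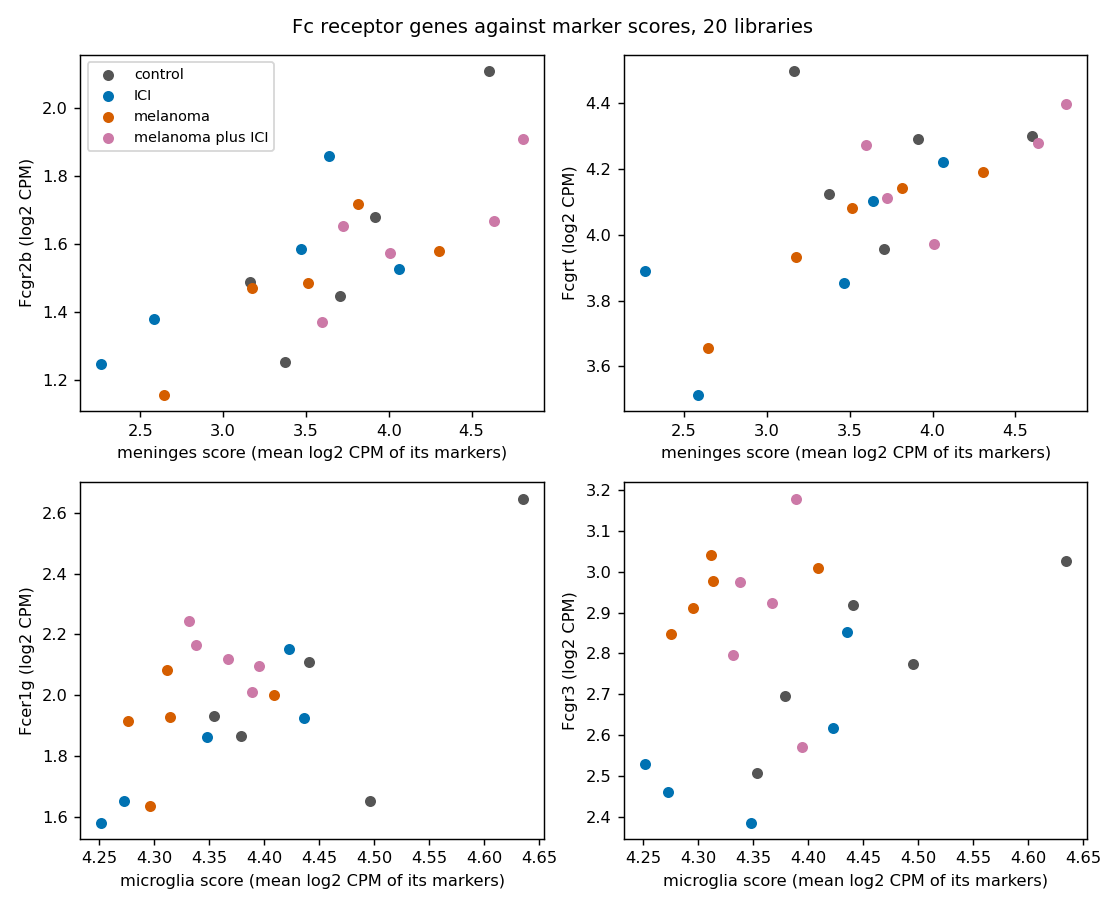
Log2 CPM of Fcgr2b and Fcgrt against the meninges score, and of Fcer1g and Fcgr3 against the microglia score, with 1 point per library coloured by group. Pearson's r is 0.77, 0.67, 0.60 and 0.28 in that order; control replicate 4 is the point at the far right of both microglia panels.

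Among 15472 genes with at least 1 CPM, the 3 whose log2 CPM lay closest to each receptor gene over the 20 libraries were listed, as a description with no p. For Fcgr2b they were Foxd1 (r = 0.80), Col1a1 (r = 0.80) and Anxa2 (r = 0.79); Col1a1, a fibrillar collagen, is itself 1 of the 8 meninges markers. For Fcgrt they were Id3 (r = 0.85), Tapbp (r = 0.85), which encodes the peptide-loading protein tapasin, and Clic1 (r = 0.83). For Fcer1g they were Ube2q2 (r = 0.83), Bet1 (r = 0.82) and Txndc17 (r = 0.82). For Fcgr3 they were Pnpla2 (r = 0.76), Ctla2a (r = 0.75) and Irf2bp2 (r = 0.73), and for Fcgr1 Sphk1 (r = 0.72), Neil1 (r = 0.72) and Abhd18 (r = 0.71). The lists of the 5 receptor genes had no gene in common.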

How the data were processed

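Per the file headers, the deposited values are raw counts per gene in 49671 genes, in the layout that featureCounts writes, with 1 table per library. The submitters' processing notes name STAR 2.5.2b and DESeq2 1.16.1. The counting program, strandedness, treatment of multiply mapped reads, genome build and annotation release are not given in the sources used here. Symbols came from GENCODE M21, which holds 49412 of the identifiers. Groups and replicate numbers came from the sample titles.

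Tests used edgeR 4.0.16 (R 4.3.3): filterByExpr by group (minimum count 10, minimum total 15) kept 18427 genes, TMM factors lay between 0.9555 and 1.043, and a robust quasi-likelihood model with 1 mean per group was fitted to all 20 libraries. Intervals are at 95%. P-values were adjusted by Benjamini-Hochberg over all tested genes. Log2 CPM used a prior count of 2, and correlations 100000 resamples. Alternatives used DESeq2 1.42.0 and limma 3.58.1, among others. The fits were tested on simulated data.

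The genes, lists and tests were chosen with earlier results of these data known. Named genes are the 6 receptor genes, the pathway gene with the smallest p in each list with 5 or more tested genes per antibody comparison, any pathway gene past the threshold, and the 3 closest patterns per receptor gene. A pathway gene that the rule names is not reported here. A monocyte score could not be computed, since 0 of its markers passed the filter, and its planned correlations were not made. Within groups, no pair of libraries agreed within sampling noise (chi-square of 10.5 to 120 per gene over 40 pairs). Replicate numbers did not pair the samples.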

Additional observations from a re-analysis of the deposited data

Results flagged for a closer look

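Fcgr4 in melanoma plus ICI hippocampi had 1 library far above the other 4, at 0.232 CPM from 6 counts. The next library read 0.0814 CPM, so the gap took 0.789 of the group's range, above the critical share of 0.71 for 5 values. For normally distributed values, chance alone marks about 1 in 20 groups in this way, and 28 groups were looked at. Counts of Fcgr4 are small whole numbers near the limit of detection, so this rate need not hold for them.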

How the results depend on the processing

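Over 860 alternative values for the 5 receptor genes, 0 passed an adjusted p of 0.05, and the lowest adjusted p was 0.281. Of 30 gene-by-comparison results, 16 kept their sign under every alternative run. With the 4 tissue scores as covariates the sign turned for Fcgr2b in the antibody comparison without tumour (0.11), in that with tumour (-0.041), in their difference (-0.151) and in the tumour comparison under checkpoint antibodies (-0.209), and for Fcgr1 in the last pair of these (-0.0434 and -0.142). With the microglia score it turned for Fcer1g in ICI against control (0.0237), averaged over tumour status (0.0739) and in melanoma against control (0.16), and for Fcgr3 in the difference (-0.0554). Without the libraries that stood apart, Fcer1g was at 0.0833 averaged and 0.0143 in melanoma against control. With limma voom, Fcer1g was at 0.0773 averaged and Fcgr1 at 0.0307 in melanoma plus ICI against melanoma.

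Leaving out 1 library at a time gave -0.196 to 0.056 for Fcgr2b in ICI against control, -0.078 to 0.127 for Fcgr1 and -0.129 to 0.0179 for Fcgr3 in melanoma plus ICI against melanoma, -0.0195 to 0.109 for Fcgr2b and -0.0597 to 0.0819 for Fcer1g averaged, and -0.229 to 0.0104 for Fcgr2b and -0.266 to 0.0144 for Fcer1g in melanoma against control. The cause of these moves was not tested.

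The count of all genes called was 0 in each comparison by edgeR. DESeq2 called 1 gene in ICI against control, 47 for the difference between antibody effects, 8 in melanoma against control and 9 in melanoma plus ICI against ICI. Limma voom called 25 in melanoma plus ICI against melanoma, 1 averaged, 19 for the difference and 1 in melanoma against control. Without the libraries that stood apart 1 gene was called for the difference, and with only the 2 groups compared 3 in melanoma against control. Leaving out 1 library gave 0 to 12 genes in melanoma plus ICI against melanoma (12 without melanoma plus ICI replicate 3), 0 to 11 for the difference and 0 to 3 in melanoma against control. At an unadjusted p under 0.05, ICI against control counted 964 genes, 1521 without a filter, 624 with the microglia score, 1539 with the 4 tissue scores, 626 with only the 2 groups, and 602 (without ICI replicate 2) to 1762 (without control replicate 2) on leaving out 1 library. Melanoma plus ICI against melanoma counted 1013, 1605 without a filter, 2746 with limma voom, and 727 (without melanoma replicate 1) to 1702 (without melanoma plus ICI replicate 3). Averaged over tumour status 403 were counted, 1075 without a filter, 1062 with the 4 tissue scores, 697 without the libraries that stood apart, 1631 with limma voom, and 292 (without ICI replicate 1) to 833 (without melanoma plus ICI replicate 3). The difference counted 1892, and 1323 to 2908 on leaving out 1 library. Melanoma against control counted 941, and 1592 without a filter. Melanoma plus ICI against ICI counted 1590, 998 with the 4 tissue scores, and 901 to 2353 on leaving out 1 library.

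With the replicate block, Fcgrt was at -0.32 in ICI against control (edgeR adjusted p = 0.798) and 0.52 for the difference (adjusted p = 0.488), and the block called 0 genes in each comparison. Of 30 same-numbered pairs 10 correlated above 0.1 (range -0.35 to 0.528), and 6 of 20 libraries lay closest to their own number.

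Centred within groups, r turned in sign for Fcgr2b with microglia (-0.0785), Fcgr3 with border macrophages (-0.4), endothelium (-0.0278) and Fcgr1 (-0.0627), Fcer1g with border macrophages (-0.0607) and endothelium (-0.146), and Fcgrt with choroid plexus (-0.0468). The 48 group levels under other scalings moved by less than 1 SD. Depth limits Fcgr4, and 48 to 108 counts per library limit the precision of Fcgr1 and Fcgr2b.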
